A study of Mus musculus with 10 samples.

Results

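The immediate-early and AP-1 genes described here were Jun, Junb, Jund, Fos, Fosl1, Fosl2, Myc, Egr1, Ier2 and Atf3, which are 10 of the 21924 mouse protein-coding genes in the annotation. They were listed by name. A peak was given to a gene when both of its ends lay in exons of 1 transcript of that gene on the gene's strand. The 5 deposited peak lists held 7 such peaks in the DMSO Pre list, 25 in the DMSO MCE list, 16 in the DMSO Diff list, 22 in the rhein MCE list and 22 in the rhein Diff list.

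The study mapped N6-methyladenosine (m6A) by MeRIP-seq, in which fragmented total RNA is pulled down with an anti-m6A antibody and sequenced beside an input portion, in 3T3-L1 cells, a mouse preadipocyte line. DMSO Pre is the vehicle condition labelled preadipocytes. DMSO MCE is the vehicle condition of mitotic clonal expansion, the round of divisions that follows the MDI hormone cocktail. DMSO Diff is the vehicle condition labelled mature adipocytes, and rhein MCE and rhein Diff are the same stages of cells given 20 µM rhein from day 0 to day 3. Rhein is an anthraquinone from rhubarb known to inhibit the m6A demethylase FTO. Each condition had 1 IP and 1 input library, so no value below has a replicate error and no test was possible. The source names in the labels run from 3T3-L2 to 3T3-L11, 1 name per library. None of 7 adipocyte marker genes, Pparg, Fabp4 and Adipoq among them, had a peak in any list, although a peak list gives no expression level. Of 7 preadipocyte and fibroblast markers, 5, 5, 4 and 2 had a peak in DMSO Pre, DMSO MCE, DMSO Diff and rhein MCE. The share of all protein-coding genes with a peak was 6.89%, 12.5%, 6.69% and 7.44% in the same order. At such low shares the absence of peaks on 7 adipocyte markers does not stand out, and no cell state is read from these counts. The rhein MCE and rhein Diff lists held 3069 and 3071 peaks, of which 3067 had identical spans, and all 22 member peaks were the same spans in both. They count as 1 sample here, with rhein MCE standing for both, and no stage difference under rhein can be read from them.

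Immediate-early genes are transcribed within minutes of a growth signal, before any new protein is made, and their mRNAs are short-lived. JUN, FOS and ATF proteins pair through leucine zippers to form AP-1, a transcription factor of growth and stress responses. The m6A mark lies mostly in GGAC and related DRACH sequences of mRNA, often near the stop codon, and YTH-domain proteins that bind it are known to shorten the life of many mRNAs. Confluent 3T3-L1 cells switch on these genes shortly after the hormone cocktail is added, well before the cells of the MCE stage were collected.

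GGAC windows from the members' transcripts (GENCODE M21, GRCm38/mm10) are shown first because they hold the GGAC that lay under peaks in the most lists. DRACH needs A, C or T after the C. In both Junb windows and the second Jun window a G follows, so these are GGAC but not DRACH. Each is 24 bases, 5′ to 3′ on the transcript strand, with GGAC in capitals. The Jun and Junb windows lay under a peak in all 4 distinct lists, the Jund and Fosl2 windows in all but DMSO Pre, and the Ier2 windows in the 3 DMSO lists. The Myc window lay under a peak in both MCE lists and the Fosl1 window in DMSO MCE.
Jun, 3′ UTR, chr4:95050128-95050151, minus strand: tacacaagatGGACtgggttgcga
Jun, 3′ UTR, chr4:95050081-95050104, minus strand: ggagtgggaaGGACgtggcgcgcc
Junb, CDS, chr8:84977997-84978020, minus strand: tcaaagccctGGACgacctgcaca
Junb, CDS, chr8:84978018-84978041, minus strand: agggctttgcGGACggttttgtca
Jund, 3′ UTR, chr8:70700097-70700120, plus strand: gcgcatgcgcGGACtagctgcggt
Jund, 3′ UTR, chr8:70700124-70700147, plus strand: ggggcgccccGGACtctttcgaga
Fosl1, CDS, chr19:5447965-5447988, plus strand: cggggaaccgGGACcgagctccgg
Fosl2, 3′ UTR, chr5:32153242-32153265, plus strand: cccttcccagGGACcagcaccttt
Fosl2, 3′ UTR, chr5:32153300-32153323, plus strand: ctggctctggGGACccacccggtg
Myc, 3′ UTR, chr15:61990030-61990053, plus strand: tggggctttgGGACtgtaagcttc
Ier2, 3′ UTR, chr8:84661730-84661753, minus strand: ttgcgtcatgGGACagacgcgggt
Ier2, 3′ UTR, chr8:84661666-84661689, minus strand: gccagggtgtGGACccgccctagg

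Members with at least 1 peak numbered 5 of 10 in DMSO Pre, where 6.89% of all protein-coding genes had one. The number was 8 in DMSO MCE, with a background of 12.5%, and 6 in DMSO Diff, with a background of 6.69%. In rhein MCE it was 8, with a background of 7.44%, and in rhein Diff 8, with a background of 7.45%. By the gene names in the lists it was 7 in each rhein list, because their only Fosl1 peak was named Ccdc85b, and unchanged in the DMSO lists. The members' share was above the background share in every list. The members were chosen with earlier results of these data known, and no test was made of that excess. Among the 3641 protein-coding genes with a peak in any list, which leaves out Fos and Atf3, the background was 41.5%, 75.2%, 40.3%, 44.8% and 44.9% in the same order, and the members were 5, 8, 6, 8 and 8 of 8. DMSO MCE was the longest list, with 5128 peaks. When each list was reduced to its 2824 highest-scoring peaks, the number of members with a peak stayed 5, 8, 6, 8 and 8, whereas the member peaks of DMSO MCE went from 25 to 17 and those of rhein MCE stayed 22. Jun, Junb, Fosl2 and Ier2 had a peak in all 4 distinct lists, as did 562 protein-coding genes, or 2.56% of them. With a stricter threshold, a score read as an adjusted p-value of 0.01, the only Junb peak of DMSO Pre (score 5.44) and the only Jund peak of DMSO Diff (score 5.56) dropped out, which left 3 members with a peak in all 4 lists. Jund, Fosl1 and Myc had none in DMSO Pre, and Fosl1 and Egr1 none in DMSO Diff. Fos (chr12:85473890-85477273, plus strand), the partner of JUN in the classical AP-1 dimer, had no peak in any list, and neither had Atf3 (chr1:191170296-191183340, minus strand), a stress-induced AP-1 family member. The lists do not separate an unmarked mRNA from one too scarce to be listed, and the depth of the libraries is unknown. Fewer cells with an RNA and less of it per cell cannot be told apart either.

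**Figure D1:**
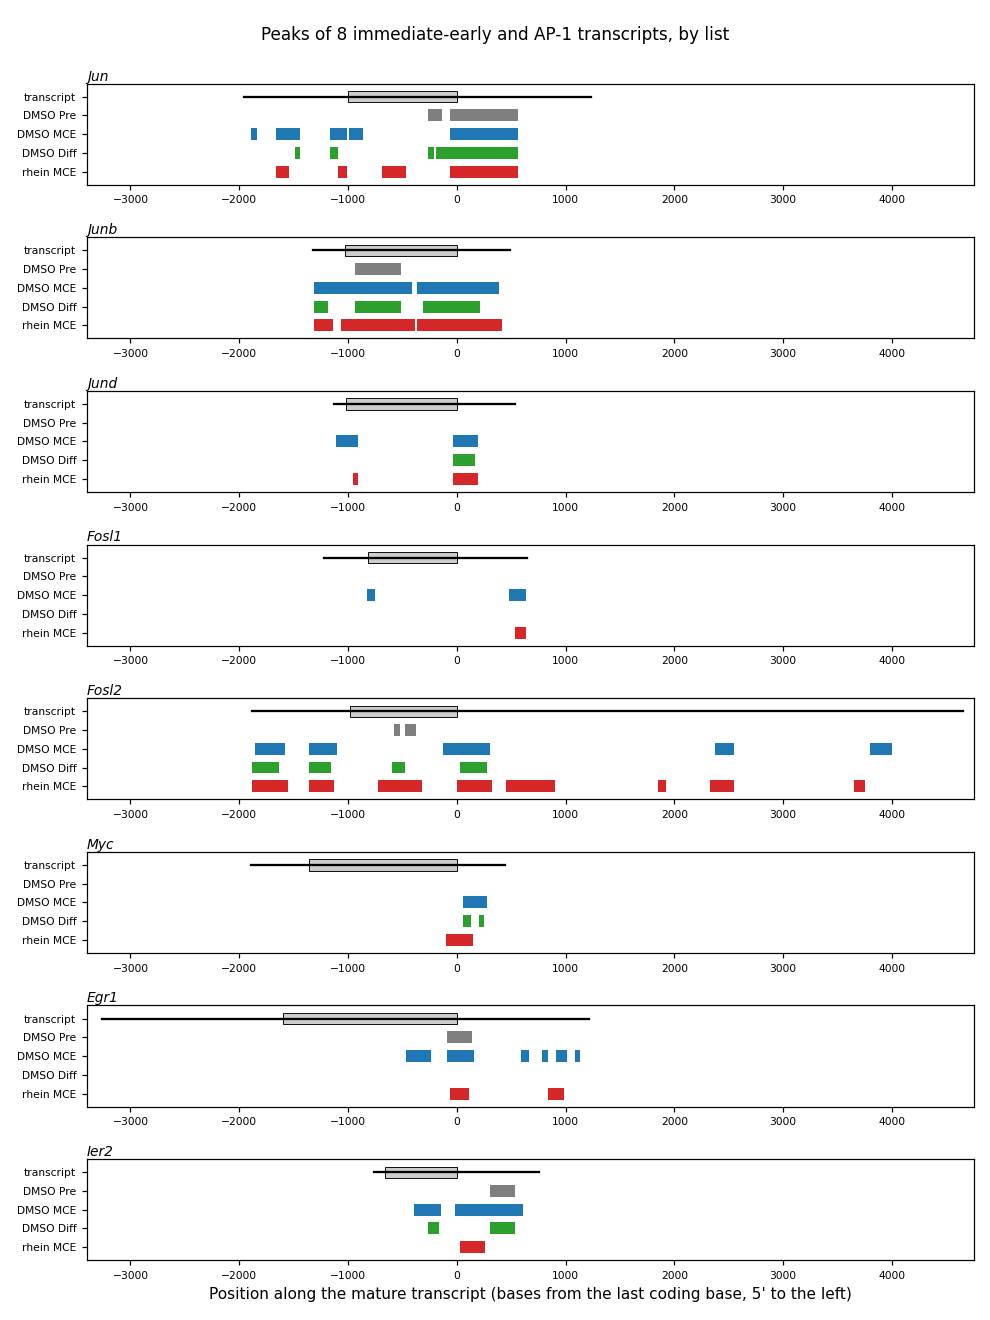
Each panel is 1 transcript, with the coding region as a grey box, and each coloured bar is 1 peak of the list named on the left. The x axis gives bases from the last coding base, negative upstream of it. The bars near 0 recur in most lists, Junb is nearly filled in DMSO MCE and rhein MCE, and the DMSO Pre rows hold the fewest bars.

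Jun encodes c-JUN, the central AP-1 subunit, from a single-exon gene at chr4:95049034-95052222 on the minus strand. It had 2 peaks in the DMSO Pre list, 5 in the DMSO MCE list, 4 in the DMSO Diff list and 4 in the rhein MCE list. The highest score of Jun was 44.1 for DMSO Pre (rank 44 of 2824 peaks), 73.3 for DMSO MCE (rank 20 of 5128), 69.1 for DMSO Diff (rank 30 of 2944) and 145 for rhein MCE (rank 7 of 3069). The score is the value deposited with each peak, whose lowest entry in the lists lay between 4.19 and 4.32. It was used to rank peaks within a list and to compare identical spans. Scores of different lists are also printed side by side at unlike spans. There they only describe each list, since the depth of the libraries is unknown. Jun was near the top of every list, but the peak that carried the top rank was not the same one. In DMSO Pre and DMSO Diff it lay in the CDS, with its midpoint 201 and 239 bases before the stop codon. In DMSO MCE it was the 625-base peak chr4:95049709-95050333, which covers the stop codon and the first 561 bases after the last coding base. In rhein MCE it was a 225-base peak, chr4:95050734-95050958, centred 576 bases before the stop codon, where no DMSO list had a peak.

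The identical 625-base Jun span was listed in 3 of the 4 distinct lists. Its score was 6.69 for DMSO Pre (rank 1793), 73.3 for DMSO MCE (rank 20) and 6.96 for rhein MCE (rank 2119). DMSO Diff had a 750-base peak ending at the same base, with a score of 5.62 (rank 2574). The region after the Jun stop codon was therefore listed everywhere, and it was among the highest-scoring peaks in DMSO MCE alone. The score does not give the level of the mark. It held 5 GGAC, including both Jun windows printed above. Jun also had 5′ UTR peaks in DMSO MCE (3), DMSO Diff (2) and rhein MCE (2) and none in DMSO Pre. Their scores lay between 4.75 and 10.7. The DMSO Diff peak of score 4.75 was 50 bases long and lay whole under a plus-strand peak of the antisense RNA Junos, of score 9.69. Whether reads were counted by strand is not stated, so Jun and Junos cannot be told apart there.

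The top-ranked Jun peaks of rhein MCE and DMSO Pre lay in the CDS and held no GGAC, and they are printed to show what they held instead. The DMSO Diff one lay inside the DMSO Pre one. Capitals mark DRACH (A, G or T, then A or G, then A, then C, then A, C or T). The rhein MCE peak held 2 such sites and the DMSO Pre peak 1.
Jun, rhein MCE peak, chr4:95050734-95050958, minus strand: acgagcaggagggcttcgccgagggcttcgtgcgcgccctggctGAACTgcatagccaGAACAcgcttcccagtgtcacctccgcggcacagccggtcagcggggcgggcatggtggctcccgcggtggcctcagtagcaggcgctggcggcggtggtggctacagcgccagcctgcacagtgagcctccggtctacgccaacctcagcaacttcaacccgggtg
Jun, DMSO Pre peak, chr4:95050409-95050533, minus strand: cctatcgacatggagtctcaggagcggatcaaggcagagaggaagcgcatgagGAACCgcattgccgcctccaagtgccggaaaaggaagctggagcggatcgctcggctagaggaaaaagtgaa

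Junb encodes JUNB, an AP-1 subunit that often acts against c-JUN on growth genes, from a single exon at chr8:84976910-84978718 on the minus strand. Its best score was 5.44 for DMSO Pre (rank 2271 of 2824), 91.3 for DMSO MCE (rank 6 of 5128), 23.4 for DMSO Diff (rank 183 of 2944) and 136 for rhein MCE (rank 11 of 3069). Junb was thus 80.4% from the top of DMSO Pre and in the first 11 peaks of both MCE lists. Its peaks covered 23.5% of the transcript for DMSO Pre, 91.2% for DMSO MCE, 59.4% for DMSO Diff and 89.8% for rhein MCE. In DMSO MCE a 900-base and a 750-base peak lay 50 bases apart and together ran from base 10 to base 1709 of the 1809-base transcript. The coding span chr8:84977910-84978334 was listed identically in DMSO Pre and DMSO Diff, with a score of 5.44 and 20.95 (rank 2271 and 211). Both Junb windows printed above lie in it. The highest peak of DMSO Diff and of rhein MCE was in the 5′ UTR, starting at base 10 in both.

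Jund encodes JUND, the subunit present in resting cells, from a single exon at chr8:70698949-70700616 on the plus strand. It had no peak in the DMSO Pre list, 2 in the DMSO MCE list, 1 in the DMSO Diff list and 2 in the rhein MCE list. The peak over the stop codon, chr8:70700049-70700273, had a score of 11.9 for DMSO MCE (rank 632) and 11.7 for rhein MCE (rank 727), and a 200-base version of it had 5.56 for DMSO Diff (rank 2594). It held 4 GGAC, and the printed Jund windows are a pair of them. The other peak lay at the start of the CDS. It was 200 bases long with a score of 10.9 in DMSO MCE (rank 767) and 50 bases long with a score of 33.3 in rhein MCE (rank 151). The 50-base rhein MCE peak, printed because it is the highest-ranked of Jund, held neither GGAC nor DRACH. The antisense gene Gm11175 overlaps 877 bases of Jund. The overlap takes in the last bases of the 50-base peak and reaches into the start of the stop codon peak. No list had a peak on the other strand of Jund.
Jund, rhein MCE peak, chr8:70699124-70699173, plus strand: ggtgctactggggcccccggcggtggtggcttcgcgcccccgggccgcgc

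Of the FOS family, which pairs with JUN proteins and cannot pair with itself, Fosl2 (FRA-2) was the member with the most peaks. Fosl2 lies at chr5:32135801-32157842 on the plus strand and had 2 peaks in the DMSO Pre list, 5 in the DMSO MCE list, 4 in the DMSO Diff list and 8 in the rhein MCE list. Its best score was 6.65 for DMSO Pre (rank 1820), 15.6 for DMSO MCE (rank 348), 12.7 for DMSO Diff (rank 513) and 41.6 for rhein MCE (rank 108). The 2 DMSO Pre peaks lay in the CDS, 549 and 424 bases before the stop codon, and shared no base with a DMSO MCE peak. DMSO Diff and rhein MCE each had a coding peak there that joined exons, with a score of 10.8 (rank 765) and 14.6 (rank 501), while DMSO MCE had none. A pair of 5′ UTR peaks and 1 peak at the stop codon or the start of the 3′ UTR were listed in DMSO MCE, DMSO Diff and rhein MCE, and none of the 3 in DMSO Pre. The second 5′ UTR peak had a score of 12.2 for DMSO MCE (rank 600), 6.15 for DMSO Diff (rank 2370) and 41.6 for rhein MCE (rank 108). Further into the 4656-base 3′ UTR of Fosl2, DMSO MCE had 2 peaks and rhein MCE 4, with scores between 6.28 and 8.19, and only 1 place, with midpoints 2464 and 2439 bases past the last coding base, was listed in both.

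Fosl1 (FRA-1), a growth-induced FOS relative at chr19:5447547-5455946 on the plus strand, had 2 peaks in DMSO MCE and 1 in rhein MCE. The DMSO MCE peak at the start codon had a score of 6.43 (rank 3634 of 5128) and held the printed window. The 3′ UTR peak had a score of 7.61 in DMSO MCE (rank 2072) and 7.29 in rhein MCE (rank 1914 of 3069). Every base of that 3′ UTR peak also lay under a minus-strand peak of Ccdc85b, a gene whose exons overlap 1163 bases of Fosl1 on the other strand, with a score of 8.01 in DMSO MCE and 7.52 in rhein MCE. Whether reads were counted by strand is not stated, so the 2 genes cannot be told apart there. In DMSO MCE and rhein MCE 1 further plus-strand span touched Fosl1 exons without lying in exons of 1 transcript, and it was not counted.

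Myc encodes c-MYC, a driver of growth and cell division, at chr15:61985391-61990350 on the plus strand. Its peaks all lay around the stop codon and the first 277 bases after the last coding base. The best score of Myc was 13.7 for DMSO MCE (rank 465), 8.61 for DMSO Diff (rank 1344) and 14.1 for rhein MCE (rank 531), with none for DMSO Pre. The DMSO MCE peak spanned 225 bases, DMSO Diff listed 2 pieces of it of 75 and 50 bases, and the rhein MCE peak began 150 bases further upstream and covered the stop codon. The DMSO MCE and rhein MCE peaks shared 100 bases, which held the printed Myc window.

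Egr1 encodes a zinc finger transcription factor that serum induces within minutes. It had 1 peak in the DMSO Pre list, 6 in the DMSO MCE list, none in the DMSO Diff list and 2 in the rhein MCE list. The 6 became 2 with lists of equal length and 3 with the stricter threshold, while rhein MCE kept 2 in both cases. The peak over its stop codon had a score of 7.55 for DMSO Pre (rank 1489), 13.2 for DMSO MCE (rank 525) and 6.96 for rhein MCE (rank 2127). The DMSO Pre span lay whole within the DMSO MCE one. The other DMSO MCE peaks were 1 in the CDS and 4 in the 3′ UTR, with scores between 6.47 and 8.77. In rhein MCE a peak 910 bases past the last coding base had the higher score, 13.4 (rank 569), in a place where DMSO MCE had 8.77 (rank 1347). No Egr1 sequence is shown.

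Ier2 encodes a small nuclear protein induced early by growth factors, from a single exon at chr8:84661331-84662852 on the minus strand. Its best score was 9.44 for DMSO Pre (rank 1011), 43.4 for DMSO MCE (rank 60), 8.45 for DMSO Diff (rank 1398) and 11.1 for rhein MCE (rank 795). The DMSO MCE list therefore held the highest-ranked Ier2 peak, a 625-base span over the stop codon and most of the 3′ UTR. The span chr8:84661556-84661780 was identical in DMSO Pre and DMSO Diff, with a score of 9.44 and 5.37, and lay inside it. The rhein MCE peak lay inside it too but shared no base with the DMSO Diff peaks. Peaks covered 14.8% of Ier2 for DMSO Pre, 57.5% for DMSO MCE, 21.4% for DMSO Diff and 14.8% for rhein MCE. A coding peak was listed for DMSO MCE, with a score of 12.5, and for DMSO Diff, with a score of 8.45, and not for rhein MCE. The DMSO Diff coding peak, which lay inside the DMSO MCE one, is printed with its GGAC in capitals.
Ier2, DMSO Diff peak, chr8:84662256-84662355, minus strand: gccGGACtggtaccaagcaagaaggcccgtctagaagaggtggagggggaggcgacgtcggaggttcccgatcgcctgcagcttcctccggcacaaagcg

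Member peaks were ranked within their lists. Of the 25 in DMSO MCE, 7 were in the first 10% of the list, and the median member peak was 15.9% from the top. The median was 63.5% from the top for DMSO Pre, 53.1% for DMSO Diff and 25.0% for rhein MCE. DMSO Pre had 1 of 7 in the first 10%, DMSO Diff 3 of 16 and rhein MCE 5 of 22. With each list reduced to 2824 peaks, a comparison chosen after seeing the data, the counts were 1 of 7, 4 of 17 for DMSO MCE, 3 of 15 for DMSO Diff and 5 of 22 for rhein MCE, so the lead of DMSO MCE in this count was gone. Its median was then 19.9% from the top and that of rhein MCE 27.2%. The JUN genes supplied most of the peaks in the first 10% outside DMSO MCE, and Fosl1 and Egr1 had none in any list. Member peaks were also longer than the list median of 100 or 125 bases, with a median of 225 bases in DMSO Pre, DMSO MCE and rhein MCE and 162.5 in DMSO Diff.

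**Figure D2:**
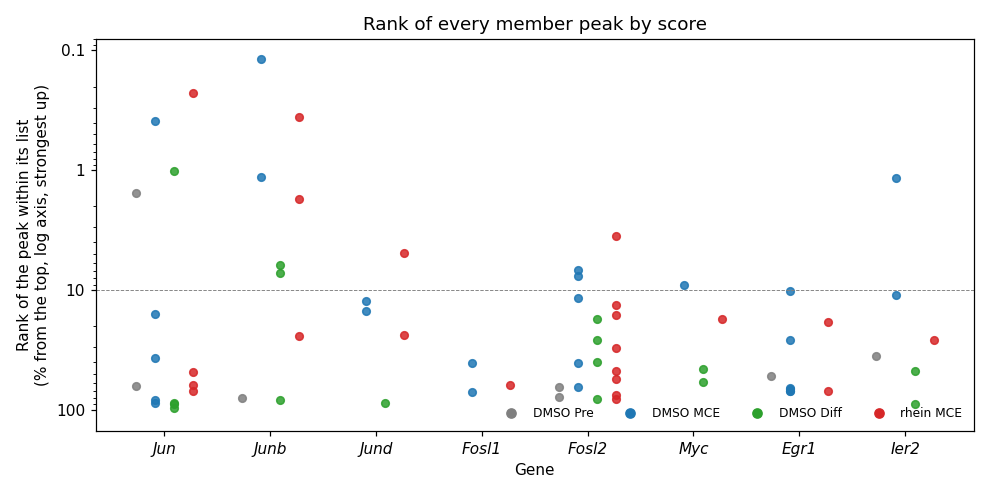
Each point is 1 member peak, placed by its rank within its own list as a percent from the top on a log axis with the highest-scoring peaks up. Colours give the list and the dashed line marks 10%. Jun has a point within the first 1.56% of every list, while Junb moves from 80.4% in DMSO Pre to 0.117% in DMSO MCE.

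Along the transcript, the members' peaks had their midpoints in the 5′ UTR, CDS and 3′ UTR in 0, 4 and 3 cases in DMSO Pre and in 5, 6 and 14 cases in DMSO MCE. In DMSO Diff the counts were 5, 5 and 6, and in rhein MCE they were 5, 4 and 13. Over all peaks on coding transcripts, the 5′ UTR share was 5.53% for DMSO Pre, 7.32% for DMSO MCE, 5.97% for DMSO Diff and 7.56% for rhein MCE. Member 5′ UTR peaks made up 20.0% of the members' own peaks for DMSO MCE, 31.2% for DMSO Diff and 22.7% for rhein MCE, and DMSO Pre had none. They came from Jun and Fosl2 in all 3 lists and from Junb in DMSO Diff and rhein MCE. The DMSO Diff ones include the 50-base Jun peak that lay whole under a Junos peak. Midpoints within 200 bases of the stop codon were found for 1 of 7 member peaks for DMSO Pre, 5 of 25 for DMSO MCE, 5 of 16 for DMSO Diff and 6 of 22 for rhein MCE, or 14.3%, 20.0%, 31.2% and 27.3%. The share over all peaks was 21.3%, 24.5%, 23.5% and 22.6%, and with so few member peaks no order is read from these shares. A peak covered the stop codon itself in Jun, Junb, Jund, Fosl2, Egr1 and Ier2 in DMSO MCE, and in Jun, Junb, Jund, Myc and Egr1 in rhein MCE.

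GGAC was present under 4 of 7 member peaks in the DMSO Pre list, 20 of 25 in the DMSO MCE list, 10 of 16 in the DMSO Diff list and 15 of 22 in the rhein MCE list. Over all placed peaks the share was 53.2%, 52.9%, 48.2% and 52.3%, and longer peaks hold more letters. Per kb, the members' peaks held 7.32 GGAC in the DMSO Pre list, 8.87 in the DMSO MCE list, 9.21 in the DMSO Diff list and 6.86 in the rhein MCE list. The rest of the same transcripts held 4.69, 3.46, 4.71 and 4.36 per kb, so the motif was denser under the peaks in each list. All placed peaks held 7.05, 7.11, 6.24 and 6.57 per kb. Across the members other than Egr1, 8 GGAC lay under a peak in all 4 lists, and these were 5 in the Jun 3′ UTR and 3 in the Junb CDS. A further 22 were covered in 3 lists and 62 in none. GGAC was searched on the transcript strand only and a match is no proof of a methylated base.

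**Figure D3:**
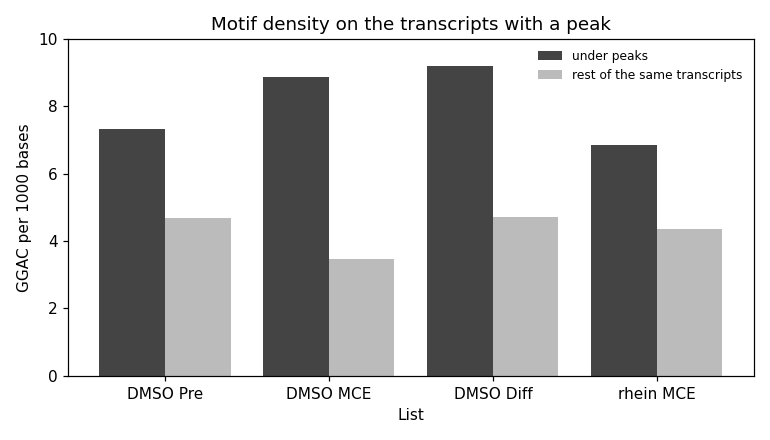
Bars give GGAC per kb on the member transcripts with a peak in each list, dark for bases under peaks and light for the rest of the same transcripts. The dark bars lie between 6.86 and 9.21 and the light bars between 3.46 and 4.71.

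Merged over the 4 distinct lists, the member peaks formed 30 separate places on 8 transcripts. Of these, 12 were listed once, 5 in 2 lists, 10 in 3 lists and 3 in all 4. The 3 in all lists were the Jun stop codon region, the 5′ part of Junb and the Ier2 3′ UTR. The Ier2 place was joined by the 625-base DMSO MCE peak, since the rhein MCE peak, 34 to 258 bases past the last coding base, shared no base with the DMSO Pre and DMSO Diff peak at 309 to 533 bases. All 12 places listed once came from DMSO MCE (8) or rhein MCE (4), so every place found in DMSO Pre or DMSO Diff was found again in another list. Of 30 places, 25 were in the DMSO MCE list, 21 in the rhein MCE list, 13 in the DMSO Diff list and 5 in the DMSO Pre list. Member peaks covered 1775 bases in the DMSO Pre list, 6650 in the DMSO MCE list, 3475 in the DMSO Diff list and 5975 in the rhein MCE list. Of the DMSO Pre bases 84.5% were also covered in DMSO MCE, as were 90.7% of the DMSO Diff bases, while these were 22.6% and 47.4% of the DMSO MCE bases. By bases, the smaller sets thus lay mostly inside the DMSO MCE set, which also came from the longest list. Their top-ranked member peaks did not. The Jun coding peaks of DMSO Pre (rank 44) and DMSO Diff (rank 30) shared no base with a DMSO MCE peak. The same held for the Fosl2 coding peaks of these 2 lists.

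**Figure D4:**
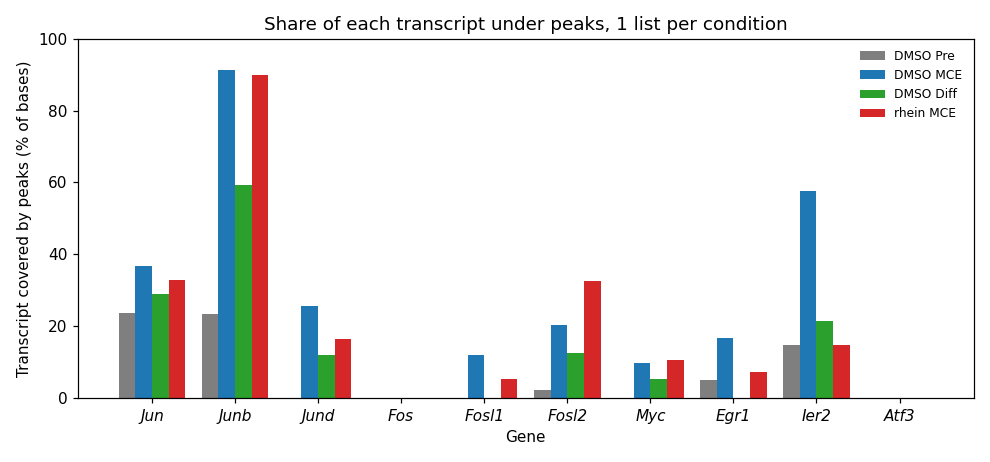
Bars give the percent of each transcript's bases that lay under a peak, 1 bar per list and gene. Junb reaches 91.2% in DMSO MCE, Ier2 57.5%, and Fos and Atf3 have no bar.

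By peaks, 14 of 16 DMSO Diff member peaks (87.5%) shared at least 1 base with a DMSO MCE peak, against 46.1% of all DMSO Diff peaks. For DMSO Pre it was 4 of 7 (57.1%), against 45.0%. From DMSO MCE the shares were 48.0% into DMSO Diff and 16.0% into DMSO Pre, against 26.2% and 24.9% of all peaks. The members' DMSO Diff peaks therefore recurred in DMSO MCE at a higher share than the list did, and no test was made of that difference. Sharing needed only 1 base, and the member peaks were longer than those of the lists. Their median was 162.5 against 100 bases in DMSO Diff and 225 against 125 in DMSO MCE. How far length raised the shares was not tested.

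Between rhein and DMSO in clonal expansion, 16 of 25 DMSO MCE member peaks (64.0%) overlapped a rhein MCE peak, against 32.3% of all DMSO MCE peaks. In the other direction it was 17 of 22 (77.3%), against 53.5%. Member peaks were longer in both lists, with a median of 225 against 125 bases, and the effect of length on these shares was not tested. The same 8 members had a peak in both lists, or 7 in rhein MCE by the listed gene names, which leave out Fosl1. Of 30 places, 16 were shared. The 4 places listed under rhein and in no DMSO list were the Jun coding peak of score 145 and 3 in the Fosl2 3′ UTR, with scores between 6.28 and 7.66. Places listed in DMSO MCE and not under rhein were 4 in Egr1, 2 in Jun, and 1 each in Fosl1, Fosl2 and Ier2. Of these 9, the 7 in Egr1, Jun and Fosl1 ranked from 3370 to 4533 in DMSO MCE, past the 3069 peaks of the rhein MCE list. With lists of equal length, a comparison chosen after seeing the data, the Fosl2 and Ier2 places were the 2 left. At identical spans, the Jun stop codon region had a score of 73.3 in DMSO MCE and 6.96 in rhein MCE, whereas the Jund one had 11.9 and 11.7. Against DMSO Diff, 10 of 22 rhein Diff member peaks (45.5%) overlapped, against 37.9% of all rhein Diff peaks, as did 10 of 16 (62.5%) the other way, against 40.4%. These rhein Diff spans repeat those of rhein MCE, so no effect of rhein at the Diff stage can be read from this comparison. The 22 identical member spans of the rhein lists differed in score by under 0.02 in 20 cases and by more than 1 in 1 case, a Jun 5′ UTR peak with 7.30 and 5.50.

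The gene names in the lists were checked against these placements. Rows named Jun included plus-strand spans of DMSO Pre, DMSO MCE and DMSO Diff that lie in exons of Junos, an antisense RNA whose exons overlap 232 bases of Jun. Their scores were 4.97, 10.3 and 9.69, and they shared 0, 7 and 50 bases with Jun peaks. The 50 bases were the whole of a DMSO Diff Jun peak. A Fosl2 row in DMSO MCE, DMSO Diff and rhein MCE lay in no Fosl2 exon. The Fosl1 3′ UTR peak was named Ccdc85b in both lists. Over whole lists, 2.83% to 4.53% of peaks overlapped a peak on the other strand.

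The members differed in transcript structure. Jun, Junb, Jund and Ier2 have 1 exon, as do 6.72% of protein-coding genes. Single-exon genes had a peak less often than the whole, in 3.19% of cases for DMSO Pre, 7.13% for DMSO MCE, 3.87% for DMSO Diff and 4.55% for rhein MCE, while these 4 members had one in all lists except for Jund for DMSO Pre. GGAC density over the transcript was 8.29 per kb in Junb, 7.23 in Ier2, 5.40 in Jund and 5.33 in Jun, above the median of 3.93 over all coding genes, and 3.80 in Fos and 4.03 in Atf3. It was 5.13 per kb in Myc, 4.90 in Fosl2, 4.83 in Fosl1 and 2.68 in Egr1, all of which had peaks. Whether GGAC density bears on a member being listed was not tested.

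AU-rich elements are 3′ UTR sequences known to speed the decay of immediate-early mRNAs. The core ATTTA was present in the 3′ UTR of 9 of the 10 members, Ier2 being the exception, and of 63.2% of genes with a 3′ UTR. The longer TATTTAT was present in 6 members and 26.8% of genes. Fos, with no peak, had 2 TATTTAT, and Atf3 had 1. In Jun the single TATTTAT lay 613 bases past the end of the last peak, and in Jund 97 to 122 bases past it. Under peaks lay 1 TATTTAT in Fosl1 and 1 of 3 in Fosl2. Those of Fos and Atf3 could not lie under one, since these genes had no peak. The core ATTTA lay under a peak for 2 of 2 in Egr1, 1 of 1 in Fosl1, 1 of 2 in Junb, 1 of 2 in Myc and 2 of 8 in Fosl2. None of the 4 in Jun and not the 1 in Jund lay under a peak.

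The other genes of the response were taken from 4 further lists. Of 20 other AP-1 and partner bZIP genes, 5, 9, 6 and 7 had a peak in DMSO Pre, DMSO MCE, DMSO Diff and rhein MCE, and Jdp2, Nfe2l2 and Bach1 had one in all 4. Of 25 other immediate-early genes the counts were 6, 12, 7 and 9, with Ier5 and Dusp1, a phosphatase that switches off MAP kinases, in all 4. Of 16 upstream kinases and factors they were 1, 10, 4 and 3, and Mrtfa, a coactivator of SRF, was in all 4. Of 10 MYC family and partner genes 1 had a peak, in DMSO MCE only. That count and the 1 of 16 upstream genes in DMSO Pre were near the share over all genes, and no difference from it was tested. Each of the 4 lists had its highest count in DMSO MCE, as did protein-coding genes as a whole, and the members had 8 in both DMSO MCE and rhein MCE.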

How the data were processed

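The libraries were 5 IP and 5 input libraries. Per the labels and the study's methods, reads were trimmed with Trim Galore 0.6.5, aligned to mm10 (GRCm38) with HISAT2 2.1.0, freed of duplicates with Picard 2.23.5 and filtered on mapping quality with SAMtools 1.9. For peak calling the authors ran exomePeak2 with its defaults, and ChIPseeker 1.26 gave the annotation. Which IP and input libraries entered each call, and whether counting was stranded, is not given in the sources used here. The deposited lists hold 1 measurement column, headed log2FoldChange, which was treated as a score: its lowest values equal -log2 of about 0.05, so it cannot be read as a fold change, and the depth of the libraries is unknown.

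Peaks were placed on GENCODE M21 transcripts of GRCm38 with Python 3.11.15 and pandas 2.3.3. Both ends had to lie in exons of 1 transcript on the peak's strand, which held for 96.5% to 97.6% of peaks. Member peaks were measured on the longest coding transcript. Distances run from the last coding base, and the part of the transcript is that of the midpoint. Peaks of different lists were shared when they had at least 1 exonic base in common. The placement was tested on simulated data. All 10 members were described with every peak, and a gene of another list was named when it had a peak in all 4 distinct lists. The members and lists were chosen with earlier results of these data known. With 1 IP and 1 input library per condition no test was made. Alternatives covered the placement rule, strand, list length, threshold, overlap, part, motif window, denominator and the rhein list used. The ranks and the places compared with rhein were also recomputed with lists of equal length, chosen after seeing the data.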

Additional observations from a re-analysis of the deposited data

Results flagged for a closer look

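Peak counts under rhein minus DMSO had opposite signs at the MCE and Diff stages for the members as a whole and for 2 genes. Over all members the difference was -3 at MCE (25 peaks under DMSO and 22 under rhein) and 6 at Diff (16 and 22). For Egr1 it was -4 at MCE (6 and 2) and 2 at Diff (0 and 2). For Fosl1 it was -1 at MCE (2 and 1) and 1 at Diff (0 and 1). With lists of equal length the counts at MCE were 17 under DMSO and 22 under rhein, so the sign at MCE turned. On that basis Egr1 had 2 and 2 and Fosl1 1 and 1 at MCE, so both differences were 0 and no longer had the opposite sign. None of these differences was tested, since each condition had 1 IP and 1 input library. The 22 member peaks of the rhein lists had identical spans, so the rhein counts are the same at both stages. The opposite signs therefore come from the DMSO counts alone.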

How the results depend on the processing

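Of 110 recomputed counts of members, peaks, shared peaks, places, parts and GGAC, 105 stayed within 1.5 times the reported count. Not all of the 110 were free to change. DMSO Pre was itself the shortest list, so equal length left it as it was, and rhein Diff repeated the 22 member spans of rhein MCE. The fall of DMSO MCE from 25 to 17 member peaks counted as within that limit. It nonetheless turned the sign of rhein minus DMSO at MCE. With the stricter threshold, a score read as an adjusted p-value of 0.01, the DMSO Diff list kept 9 member peaks of 16, and 3 of the 4 Jun peaks there were lost. Junb then had no peak in DMSO Pre and Jund none in DMSO Diff. With the authors' annotation column in place of the midpoint, the 5′ UTR count of DMSO MCE was 8 and its coding count 3, because peaks of Junb, Jund and Fosl1 that reach over the start codon are listed as 5′ UTR. With the 3641 protein-coding genes that had a peak in any list as the denominator, the background share became 41.5% for DMSO Pre, 75.2% for DMSO MCE, 40.3% for DMSO Diff, 44.8% for rhein MCE and 44.9% for rhein Diff. On that basis the members were 5, 8, 6, 8 and 8 of 8. In comparisons chosen after seeing the data, with lists of equal length, the DMSO MCE member peaks in the first 10% of the list went from 7 to 4, and the places listed in DMSO MCE and not under rhein from 9 to 2. No paired analysis was possible because each condition had 1 IP and 1 input library and no result came from a test. For the same reason no replicate could be left out. The lists give no read depth, so a gene without a peak is not shown to be unmarked.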
